A study of Mus musculus with 468 samples.

Results

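The genes described here were Hoxa5, Hoxc6, Hoxc8, Hoxc9, Hoxc10, Tbx15 and Tcf21, 7 transcription factor genes known for differing between fat depots. They were found by symbol and made up 7 of the 23180 genes measured by RNA sequencing in adipose tissue. One library came from each Diversity Outbred mouse (Mus musculus), a stock in which the genomes of inbred founder strains are mixed by outbreeding. The diet of every mouse was rich in fat and sugar (HFHS, 45 percent fat), without a control diet here, and the study's methods describe the tissue as gonadal fat. The depth of a library, summed over genes, was 82.04 M expected counts at the median, with a lowest value of 35.3 M and a highest of 137.8 M. The labels gave no sex, age, generation or batch, and the libraries formed 1 group.

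HOX genes encode homeodomain proteins that set position along the body axis, and they lie in the genome in the order in which they act along it. Fat cells and their progenitors keep part of this positional code in the adult, so that depots can be told apart by their HOX genes. Tbx15, a T-box factor, is known from subcutaneous and brown fat and from fast skeletal muscle, and Tcf21, a basic helix-loop-helix factor, is known from visceral fat progenitors and other mesenchyme of the body cavity. The levels of these genes therefore describe what a dissected fat pad holds. In a bulk sample, fewer cells of a type and less RNA per cell cannot be told apart.

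The members lie at 4 places in the mouse genome (GRCm38, GENCODE M21 annotation, positions of whole genes). Hoxa5 (ENSMUSG00000038253) is at chr6:52201754-52204587 on the minus strand, within the HOX A cluster. Hoxc10 (ENSMUSG00000022484, chr15:102966796-102971893), Hoxc9 (ENSMUSG00000036139, chr15:102976439-102985099), Hoxc8 (ENSMUSG00000001657, chr15:102990607-102994111) and Hoxc6 (ENSMUSG00000001661, chr15:102998257-103011881) follow each other on the plus strand of the HOX C cluster. Tbx15 (ENSMUSG00000027868) is at chr3:99240381-99354259 on the plus strand, and Tcf21 (ENSMUSG00000045680) is at chr10:22817281-22820174 on the minus strand.

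Some of these genes overlap others. Hoxc5 is annotated from within Hoxc10 to past Hoxc6 and so overlaps all 4 members of the HOX C cluster, but it shared exon bases with Hoxc10 alone (8.70% of the Hoxc10 exons). Expected counts were fractional for Hoxc10 in most libraries (7.91% of its values were whole within 1e-06) and whole in 94.7% of libraries for Hoxc9 and in 100% for the other 5. Hoxa5 lies inside the longer transcripts of Hoxa3 and Gm28308 and opposite Hoxaas3, with no exon bases in common. Whether the counting used strand is not stated in the methods, so antisense reads cannot be told apart from those of the genes.

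Promoter sequence from RefSeq (GRCm38.p6) matched 2 of the 7 members, Hoxa5 and Tcf21. They are shown because they are a HOX gene and a gene of another family, and because Tcf21 and its relatives bind the E-box, CANNTG. The 250 bases before each RefSeq start are printed 5′ to 3′ on the gene's strand, with E-box letters in capitals. They lie at chr6:52204588-52204837 for Hoxa5 and chr10:22820144-22820393 for Tcf21. The Tcf21 window overlaps the gene as placed by GENCODE M21, which reaches to chr10:22820174.
Hoxa5: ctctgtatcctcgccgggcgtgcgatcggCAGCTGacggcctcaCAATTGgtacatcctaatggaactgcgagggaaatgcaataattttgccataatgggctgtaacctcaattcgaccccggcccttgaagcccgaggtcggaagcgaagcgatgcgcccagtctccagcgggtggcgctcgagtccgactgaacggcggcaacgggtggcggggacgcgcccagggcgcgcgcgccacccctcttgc
Tcf21: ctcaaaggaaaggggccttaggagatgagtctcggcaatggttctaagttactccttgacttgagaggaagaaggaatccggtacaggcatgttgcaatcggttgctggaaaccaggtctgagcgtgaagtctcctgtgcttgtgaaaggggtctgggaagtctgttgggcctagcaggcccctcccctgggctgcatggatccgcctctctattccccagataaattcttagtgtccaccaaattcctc
The Hoxa5 window held 63.6% G and C and the Tcf21 window 52.4%. Both strands were searched. The E-box letters CANNTG occurred 2 times before Hoxa5 and 0 times before Tcf21, and 66.2% of the 32851 promoters of the same length held them. The homeodomain core TAAT occurred 3 times before Hoxa5 and 0 times before Tcf21 (54.9% of all promoters). Neither window held GGGCGG (32.7% of all promoters) or TATAAA (12.4%). These matches are letters in a window and say nothing of binding.

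Before the levels were compared, the libraries were sorted by counts of the Y chromosome genes Ddx3y, Eif2s3y, Kdm5d and Uty, since nothing in the labels divides them. Any count of these genes was found in 51.5% of the libraries and none in 48.5%. The study lists as many females for adipose tissue as there are libraries without Y counts, and as many males as with them. The clusters thus match the female and male mice in number, although the labels give no sex for single mice. These clusters are not groups of the labels, so their levels are described side by side and were not tested against each other. Values are given as CPM, counts scaled to a common library size by TMM (1 CPM is 1 count in 1 M), and log2 CPM with a prior count of 2. The 20 adipocyte markers summed to between 19590 and 78527 CPM (median 51839), and none of them had a median of 0.

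**Figure D1:**
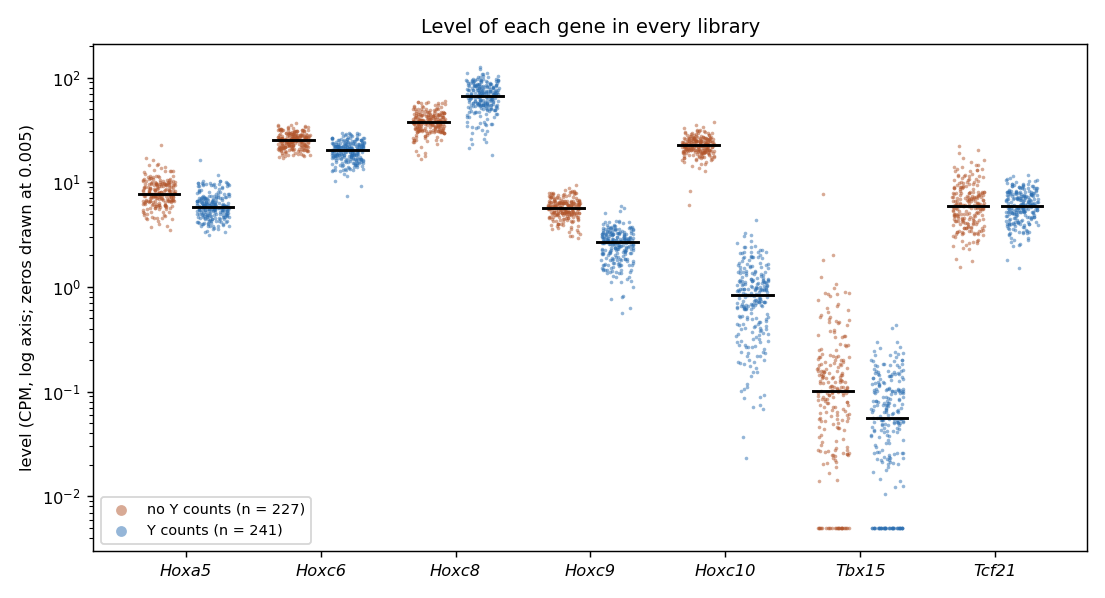
CPM of the 7 genes on a log axis, 1 point per library, split into libraries without (48.5%) and with (51.5%) counts of Y chromosome genes, and bars at the medians. Hoxc10 is the only gene whose clusters share no value, with a gap from 4.38 to 6.08 CPM.

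Hoxc8 was the most abundant member and Tbx15 the least. Per kilobase of exon, which allows levels of different genes to be compared, the medians over all libraries were 16.8 CPM for Hoxc8, 9.29 for Hoxc6, 3.55 for Hoxa5, 2.54 for Tcf21, 1.53 for Hoxc9, 1.28 for Hoxc10 and 0.020 for Tbx15. The place of Hoxc10 in this order rested on the cluster: its median per kilobase was 11.8 CPM without Y counts and 0.44 CPM with them. Library by library on this scale, Hoxc6 stood above Hoxc8 in 38 libraries, all without Y counts, and Hoxa5 stood above Tcf21 in 73.3% of all libraries. Hoxc10 stood above Hoxc6 in 76.2% of the libraries without Y counts and in 0 of those with them. Some neighbours in this order therefore changed places in many mice. Hoxa5 stood above Hoxc6 in only 2 libraries and Tbx15 above Hoxc10 in 1, while Tcf21 stood above Tbx15 in every library.

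Hoxa5, a HOX gene of the trunk that is known for its high level in visceral fat, ranged from 3.50 to 22.5 CPM without Y counts (median 7.81) and from 3.13 to 16.4 CPM with them (median 5.86). The clusters overlapped almost fully. Hoxc6, which acts in the thoracic region, ranged from 17.0 to 36.6 CPM without Y counts (median 25.4) and from 7.34 to 29.4 CPM with them (median 20.4). Its range was the narrowest of the members, with 90% of the libraries of a cluster within 1.70-fold and 2.01-fold.

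Hoxc8, the neighbour of Hoxc6 and a thoracic HOX gene, had its higher median with Y counts. It ranged from 16.6 to 59.6 CPM without Y counts (median 37.7) and from 18.3 to 125.995 CPM with them (median 67.3). Hoxc9 ranged from 2.93 to 9.38 CPM without Y counts (median 5.68) and from 0.559 to 5.93 CPM with them (median 2.66). The medians of Hoxc8 and Hoxc9 thus stood in opposite order in clusters whose ranges overlapped.

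Hoxc10, the most posterior of the HOX members and known from subcutaneous fat of the hindlimb region, ranged from 6.08 to 37.8 CPM without Y counts (median 22.5). It ranged from 0.0234 to 4.38 CPM with Y counts (median 0.838), and the ratio of the medians was 26.8. At the lowest values its level rested on few reads, with 2 expected counts in the lowest library. The 2 libraries without Y counts in which Xist was under 50 CPM, mice DO153 and DO347, had 21.9 and 20.5 CPM of Hoxc10 and so stood with their own cluster.

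Tbx15 was near the limit of detection in this tissue. It was listed at 0 in 15.4% of the libraries, had at most 3 counts in 30.1% and reached 1 CPM in 5 libraries, and it was the only member that missed the filter of 10 counts in a share of 0.5 of the libraries. Its median was 0.101 CPM without Y counts (highest 7.72) and 0.0566 CPM with them (highest 0.432).

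Tcf21, known from the progenitors of visceral fat, had nearly equal medians in the clusters. It ranged from 1.57 to 22.2 CPM without Y counts (median 5.97) and from 1.51 to 11.8 CPM with them (median 5.94). The high end was longer without Y counts, where the 95th percentile was 13.2 CPM against 9.64 CPM.

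The rest of the HOX genes gave the surroundings of these levels. Of 39 HOX genes, 33 were in the files, 32 passed the filter and 10 had a median over 10 CPM in either cluster. In paralog groups 9 to 13, the posterior end of the clusters, 10 of 11 genes had a higher median without Y counts, and Hoxb9 was the exception. In groups 1 to 8 this held for 9 of 22 genes. Hoxa9 had medians of 12.7 and 1.27 CPM without and with Y counts, Hoxa10 of 11.98 and 0.700 CPM, and Hoxa11 of 3.78 and 0.0823 CPM. Of all 33 HOX genes, Hoxc10 was the only one whose clusters did not overlap. These medians of single genes carry no test, because the clusters are not groups of the labels. Overlap and the order of the medians were not counted over all genes. Whether these HOX counts are unusual in these data is therefore not known.

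**Figure D2:**
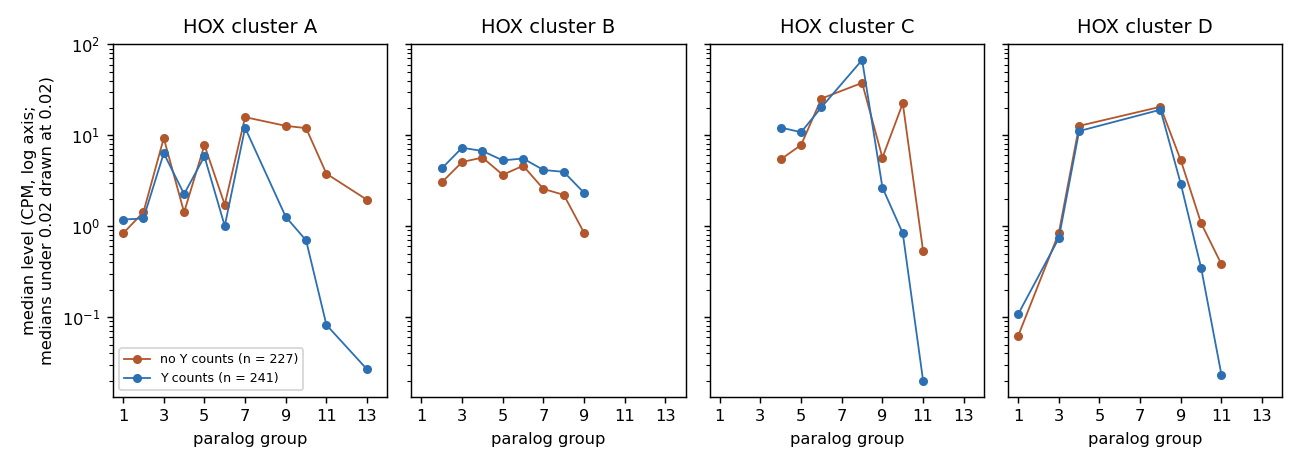
Median CPM of each HOX gene on a log axis by paralog group, 1 panel per HOX cluster, for libraries without and with Y chromosome counts. The medians part in groups 9 to 13, where 10 of 11 genes are higher without Y counts.

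The spread between mice was measured as the SD of log2 CPM inside the clusters. It was 0.28 for Hoxc6, 0.40 for Hoxa5, 0.41 for Hoxc8, 0.44 for Hoxc9, 0.59 for Tcf21, 0.86 for Hoxc10 and 1.29 for Tbx15. Each library came from 1 mouse, so biological and technical variation cannot be told apart in this spread. Sampling of reads alone would give between 0.338% and 4.31% of the variance for the 6 members past the filter and 39.8% for Tbx15.

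Set beside the 500 genes closest in mean level, the members were spread neither uniformly narrow nor uniformly wide. A smaller SD was found in 38.6% of these genes for Hoxc9, in 53.6% for Hoxa5 and in 57.2% for Hoxc6. The share was 74.6% for Tcf21, 81% for Tbx15 and 84.8% for both Hoxc8 and Hoxc10. The mean level was taken over all libraries. For Hoxc10 it was 1.95 log2 CPM, between 4.48 without and -0.43 with Y counts, so its 500 genes matched the level of neither cluster. The 500 genes set beside Tbx15 came from those past the filter, which Tbx15 missed, and its share was 65.2% with no filter. For Hoxc9 the share depended on the scale, at 29.8% with the deposited VST values and 70.4% with all libraries pooled. Hoxc10 was widely spread in the libraries with Y counts alone, where its SD was 1.16 against 0.30 without them and its 95th percentile was 15.3-fold above its 5th percentile. Hoxc8 and Hoxc9 were also more spread with Y counts (SD 0.48 and 0.53) than without (0.33 and 0.31), and Tcf21 less (0.50 against 0.68). These differences of spread were not tested.

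The labels number the mice and the libraries, without saying what order these numbers follow. Across 5 blocks of consecutive mouse numbers, the block medians of Hoxa5 inside a cluster differed by at most 1.15-fold, and those of the 6 members past the filter by at most 1.32-fold (Hoxc10 with Y counts). With edgeR's quasi-likelihood test and the cluster as a covariate, the slope per 100 mouse numbers was 0.020 on the log2 scale for Hoxc6 (95% interval 0.0032 to 0.037; adjusted p = 0.103) and between -0.0064 and 0.032 for the others. By edgeR, 0 of the 6 members passed an adjusted p of 0.05 with mouse number, against 13.7% of all genes tested, and 1 (Hoxc6) had an unadjusted p under 0.05. With library number 0 passed, against 0.294% of all genes, and 0 had an unadjusted p under 0.05. DESeq2 and limma also called 0 of them with either number. The slopes lay between -0.020 and 0.013 per 100 libraries. For Hoxc10 the interval was -0.014 to 0.078 with mouse number and -0.047 to 0.053 with library number.

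Markers of other tissues stood high in a few libraries, and some of these held the extreme values of the members. Over 100 CPM of summed epididymis, seminal vesicle or ovary markers, or over 1000 CPM of skeletal muscle markers, were found in 13 libraries (7 with and 6 without Y counts). Mice DO032 and DO069, without Y counts, had 977 and 1579 CPM of ovary and oviduct markers, where the median of the cluster was 5.68. They also had the lowest Hoxc10 of the cluster, 6.08 and 8.23 CPM, and high Tcf21, 15.7 and 20.5 CPM (ranks 6 and 2 from the highest). Mouse DO283, with Y counts, had 228836 CPM of seminal vesicle markers, the lowest total count of all libraries, the lowest Hoxc6 (7.34 CPM) and the next to lowest Hoxc8 of its cluster (21.4 CPM). Mice DO288 and DO379 had 6782 CPM of seminal vesicle and 3088 CPM of epididymis markers, and their Hoxc10 levels were 1.14 and 0.715 CPM, near the median of the cluster. The part of these tissues in the levels was not tested. Without all 13 libraries the SD was 0.27 for Hoxc6, 0.86 for Hoxc10 and 1.24 for Tbx15, close to the values over all libraries. Leaving these out does not remove all such markers. With Y counts, the 95th percentile was 13.1 CPM for epididymis and 30.1 CPM for seminal vesicle markers (medians 0.550 and 0.549). The 3 highest Tcf21 libraries of that cluster (DO406, DO178 and DO313) had 3.01 to 9.86 CPM and 11.6 to 30.7 CPM of them.

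Tbx15 followed skeletal muscle markers. In the 82.1% of libraries with under 100 CPM of the 12 summed muscle markers, the median of Tbx15 was 0.0689 CPM (highest 0.575). It was 0.0968 CPM in the 67 libraries with 100 to 300 CPM and 0.873 CPM in the 17 libraries above that, none of which was at 0 and all of which lacked Y counts. Mouse DO164, with 6896 CPM of muscle markers, had the highest Tbx15 of all (7.72 CPM), and mice DO487 and DO326, with 1044 and 1295 CPM, came next (2.03 and 1.80 CPM). The part of muscle RNA in the level of Tbx15 was not tested.

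**Figure D3:**
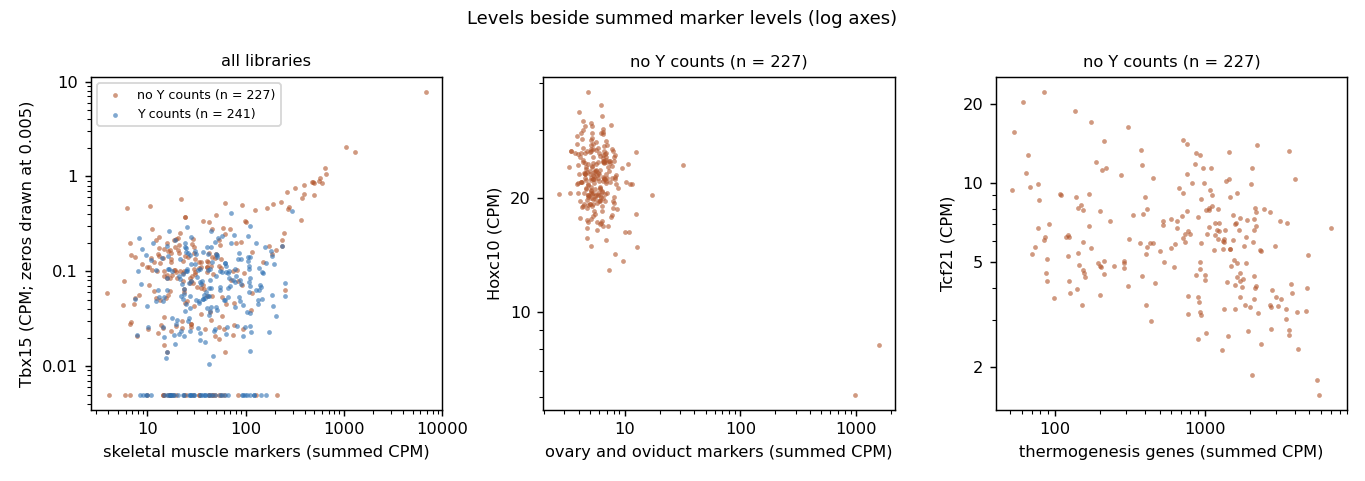
Members against summed markers on log axes, 1 point per library. Tbx15 is drawn against skeletal muscle markers in all libraries, and Hoxc10 against ovary markers and Tcf21 against thermogenesis genes in the libraries without Y counts. Tbx15 rises above 1 CPM in the libraries with the most muscle markers, and the 2 lowest Hoxc10 values belong to the 2 libraries with the most ovary markers.

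Co-variation was measured with Pearson's r of log2 CPM centred inside the clusters, over all libraries and 21 pairs. The adjusted p came from limma fitted over all genes with 1 member as the covariate, the larger of both directions being taken. For pairs with Tbx15, which missed the filter, only the direction with Tbx15 as the covariate was available. As background, the share of all tested genes called higher and lower was 35% and 35.9% with Hoxa5, 19.1% and 21.6% with Hoxc6, 26.9% and 30% with Hoxc8, and 10.6% and 11.8% with Hoxc9. It was 8.21% and 2.74% with Hoxc10, 12.4% and 13.5% with Tbx15, and 30.5% and 28.2% with Tcf21. With so many mice, weak correlations pass, so the size of r matters more than the call. Of the 21 pairs 9 passed, 8 with a positive and 1 with a negative r.

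Neighbours in the HOX C cluster gave the largest values. For Hoxc6 and Hoxc8 r was 0.56 (limma, adjusted p = 3.7e-35; rho = 0.43), for Hoxc9 and Hoxc10 0.49 (limma, adjusted p = 1.28e-25; rho = 0.47) and for Hoxc6 and Hoxc9 0.45 (limma, adjusted p = 6.54e-21; rho = 0.47). Hoxc8 and Hoxc9 had an r of 0.36 (limma, adjusted p = 8e-12; rho = 0.28). Each of these r and rho had a permutation p of 1e-05, the smallest that 100000 permutations can give. Without the 2 libraries farthest from the median of the first gene, r was 0.52, 0.49, 0.45 and 0.36. Inside the blocks of mouse numbers it lay between 0.47 and 0.63 for Hoxc6 and Hoxc8 and between 0.33 and 0.60 for Hoxc9 and Hoxc10. Inside the blocks of library numbers the range of Hoxc8 and Hoxc9 was wider, from 0.065 to 0.51.

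Distance along the cluster did not order every pair. Hoxc8 and Hoxc10 had an r of -0.04 (limma, adjusted p = 0.713), although Hoxc9 lies between them. Hoxc6 and Hoxc10 had an r of 0.09 (limma, adjusted p = 0.235) but a rho of 0.23 (permutation p = 1e-05). Hoxc9 was thus correlated with both of its neighbours, while the r of these neighbours with each other missed the threshold.

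Hoxa5, on another chromosome, moved with Hoxc6 (r = 0.28; limma, adjusted p = 2.08e-08) and weakly with Hoxc9 (r = 0.16; limma, adjusted p = 0.00688). The pairs of Hoxa5 with Tbx15 (r = 0.16; limma, adjusted p = 0.00443) and with Tcf21 (r = -0.12; limma, adjusted p = 0.0148) were as weak. The pair with Hoxc9 did not pass with adipocyte and progenitor scores (r = 0.07; limma, adjusted p = 0.416), with the macrophage score (r = 0.06) or in libraries with Y counts alone (r = 0.09). The pair with Tbx15 did not pass with the macrophage score (r = 0.09; limma, adjusted p = 0.275) or with Y counts alone (r = 0.05). The pair with Tcf21 was -0.10 and no longer passed without the 13 libraries with markers of other tissues. Hoxc10 and Tcf21 had an r of 0.14 (limma, adjusted p = 0.0218) but a rho of 0.02, and this pair changed sign between the clusters.

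**Figure D4:**
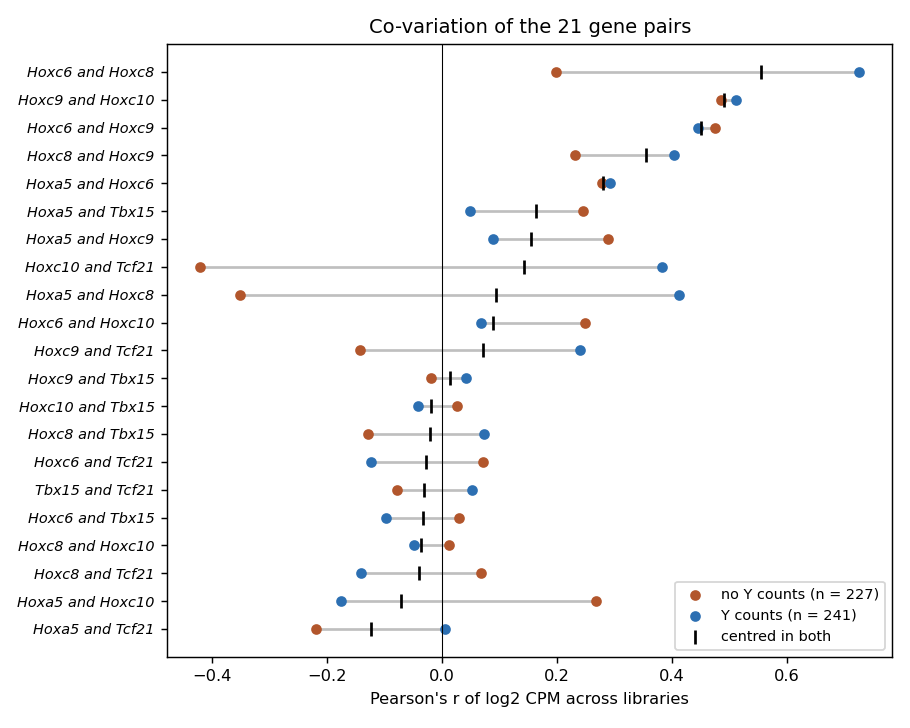
Pearson's r of log2 CPM for the 21 pairs inside the libraries without and with Y chromosome counts. Hoxc9 and Hoxc10 are alike in both (0.49 and 0.51), while Hoxa5 and Hoxc8 are at -0.35 and 0.41.

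The slope of a pair was therefore compared between the clusters by limma's interaction term, which was required to pass in both directions. Pairs with Tbx15 had 1 available direction and so could not be counted. The lowest value among them was that of Hoxc8 and Tbx15 (limma interaction, adjusted p = 0.442). As background, the slope differed for 36.2% of all genes tested with Hoxa5, 23.5% with Hoxc6, 61.1% with Hoxc8, 4.76% with Hoxc9, 46% with Hoxc10 and 40.4% with Tcf21. A difference of slopes was thus common for any gene in these data, except with Hoxc9. It passed for 6 pairs, and 4 of these had an r of opposite sign in the clusters. All 6 also passed without the 13 libraries with markers of other tissues.

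Hoxa5 and Hoxc8 had an r of -0.35 without and 0.41 with Y counts (limma interaction, adjusted p = 2.25e-15). For Hoxc10 and Tcf21 the values were -0.42 and 0.38 (limma interaction, adjusted p = 1.57e-13), and -0.37 and 0.38 without the 13 libraries. Both pairs turned from a negative to a positive relation, and each r inside a cluster had a permutation p of 1e-05, the smallest possible. Hoxa5 and Hoxc10 went the other way, from 0.27 to -0.18 (limma interaction, adjusted p = 0.00135), and Hoxc9 and Tcf21 from -0.14 to 0.24 (limma interaction, adjusted p = 0.0107).

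Hoxc6 and Hoxc8 were positive in both clusters, with an r of 0.20 without and 0.73 with Y counts (limma interaction, adjusted p = 1.12e-08). Hoxc9 and Hoxc10 had nearly the same r, 0.49 and 0.51, and differed in slope (limma interaction, adjusted p = 0.0181), beside the wider spread of Hoxc10 with Y counts. The pairs Hoxc6 and Hoxc9 (0.48 and 0.45) and Hoxa5 and Hoxc6 (0.28 and 0.29) did not pass the test of the difference (limma interaction, adjusted p = 0.583 and 0.477).

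**Figure D5:**
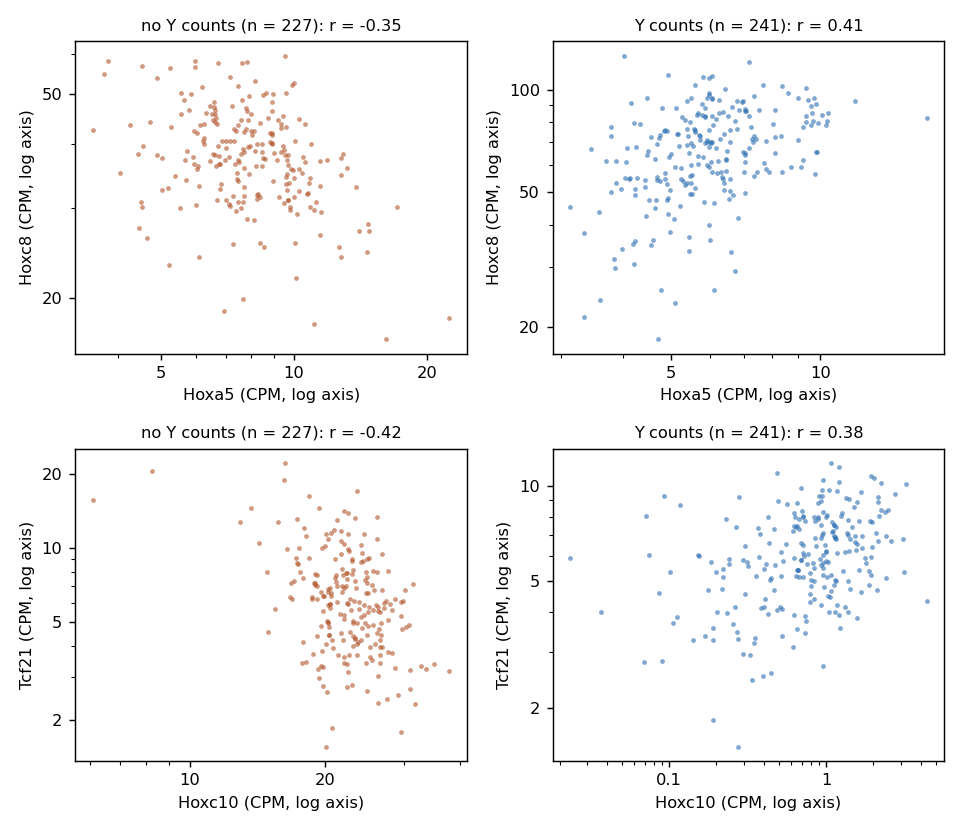
Hoxa5 against Hoxc8 and Hoxc10 against Tcf21 in CPM on log axes, 1 point per library, in libraries without (left) and with (right) Y chromosome counts. Each pair slopes down on the left (r of -0.35 and -0.42) and up on the right (0.41 and 0.38).

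Among HOX genes outside the list, Hoxa5 followed its own cluster. Its r was 0.71 with Hoxa7, 0.64 with Hoxa3, 0.52 with Hoxa6, 0.45 with Hoxa2 and 0.43 with Hoxa4. Reads of Hoxa3 come from a transcript that spans Hoxa5 without common exon bases. Hoxc6 and Hoxc8 followed the anterior genes of their cluster, with an r of 0.55 and 0.62 with Hoxc4 and of 0.51 and 0.67 with Hoxc5. All of these passed (limma, adjusted p of 8.64e-22 for Hoxa5 with Hoxa4 or lower).

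Hoxc10 followed posterior genes of the HOX A cluster on another chromosome. Its r was 0.65 with Hoxa9 (0.25 without and 0.69 with Y counts) and 0.64 with Hoxa10 (0.20 and 0.66). With Hoxa11 r was -0.01 without and 0.49 with Y counts, and with Hoxd10 it was -0.32 and 0.50. These r were higher in the libraries with Y counts, a difference that was not tested for these single genes. The r of Hoxc10 with Hoxc5, the gene with which it shares exon bases, was 0.01. Hoxc9 also followed Hoxa9 (0.43) and Hoxa10 (0.33), and Tcf21 followed Hoxd10 (0.51), Hoxd11 (0.49) and Hoxd9 (0.42). With Y counts, Hoxa10 reached 19.1 CPM and Hoxa11 17.6 CPM, against medians of 0.700 and 0.0823 CPM. No r of this paragraph is given without the 13 libraries with markers of other tissues.

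Counted over the 27 HOX genes that are no members and passed the filter, 20 rose and 1 fell with Tcf21, 15 rose and 0 fell with Hoxc10, 13 rose and 0 fell with Hoxc9, and 11 rose and 3 fell with Hoxa5. With Hoxc6 8 rose and 8 fell, and with Hoxc8 6 rose and 10 fell. Over all genes, 30.5% rose and 28.2% fell with Tcf21, 8.21% and 2.74% with Hoxc10, and 10.6% and 11.8% with Hoxc9. These shares were 35% and 35.9% with Hoxa5, 19.1% and 21.6% with Hoxc6, and 26.9% and 30% with Hoxc8. The share of HOX genes rising with Hoxa5, 40.7%, was thus near that over all genes, and the counts with Hoxc8 were also near theirs. The HOX counts changed with covariates: given the adipocyte and progenitor scores, 7 rose and 0 fell with Hoxc6 and 11 rose and 1 fell with Hoxc8. Given the scores, 9.72% of all genes rose and 10.1% fell with Hoxc6, and 24.6% and 21% with Hoxc8. Without the 13 libraries with markers of other tissues, the numbers that fell were 2 for Hoxc6 and 5 for Hoxc8. With Tbx15 6 rose and 1 fell, beside 12.4% and 13.5% of all genes.

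The genes whose pattern was most like that of a member were those with the largest r in the weaker of the clusters, outside the HOX neighbourhood, and their r over all libraries, centred inside the clusters, is printed. For Hoxa5 these were H2-Ke6, an enzyme of mitochondrial fatty acid synthesis (r = 0.72), Aldh2, a mitochondrial aldehyde dehydrogenase (0.70), and Slc22a23, a solute carrier (0.69). The gene most opposed to it was Spc25 (-0.67), a kinetochore protein of dividing cells. These partners were picked as the best of all genes tested, so their r cannot be set against those of the few other members.

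Hoxc6 was most like Gata6, a zinc finger factor of visceral mesoderm (r = 0.46), Tmem88b (0.42) and Cc2d2a, a protein of the cilium (0.36), and most opposed to the kinase gene Tlk1 (-0.38). For Hoxc8 the partners were Aoc3, an amine oxidase abundant in fat cells (0.74), Sgce, a sarcoglycan (0.64), and Ehd2, a protein of caveolae (0.59), and the opposite was Ddi2 (-0.53). Tcf21 was most like Pi15 (0.68), the growth factor gene Tgfb2 (0.66) and Wasf3, an actin regulator (0.65), and most opposed to Trappc8 (-0.50). These partners held in both clusters by the rule that chose them.

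The partners of the remaining members by the same rule had smaller r. Those of Hoxc9 were Cdkn2c, an inhibitor of the cell cycle (0.31), Nos3, the nitric oxide synthase of endothelium (0.30), and Marc2 (0.29). Those of Hoxc10 were Usp20, a deubiquitinase (0.28), Itprid2 (0.23) and Pnkd (0.23). For Tbx15 they were Tmod4, a tropomodulin of skeletal muscle (0.37), Bbs2 (0.26) and Mllt10 (0.25). The most opposed genes were BE692007 for Hoxc9 (-0.26), Usp48 for Hoxc10 (-0.26) and Exog for Tbx15 (-0.26).

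Cell type markers moved with several members, and the lists are given by their counts and median r. With Hoxa5, 18 of 20 macrophage genes fell and 0 rose (median r -0.50, against -0.01 over all genes), among them Itgax (-0.65) and Ctss (-0.59). Of 20 adipocyte genes 15 rose and 2 fell (median 0.33). Lep, the leptin gene, was the most negative of them (-0.65) and Cfd, the adipsin gene, the most positive (0.63). Of 20 progenitor genes 13 fell and 3 rose, with Col1a1 at -0.55. Most adipocyte markers thus rose with Hoxa5, while most macrophage markers fell. Over all genes, 35% rose and 35.9% fell with Hoxa5.

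With scores of the adipocyte and progenitor lists as covariates, the median r of Hoxa5 with macrophage genes was -0.27. Genes of thermogenesis, the burning of fuel for heat, rose with Hoxa5 in 11 of 12 cases (median 0.33, or 0.53 without and 0.12 with Y counts), with Ppargc1a at 0.59 and Ebf2 at 0.57. Their summed level had a median of 927 CPM without and 107.2 CPM with Y counts. Of 22 Polycomb and Trithorax genes, the chromatin regulators that hold HOX genes off or on, 15 rose with Hoxa5 and 3 fell, led by Ring1 (0.57) and Cbx7 (0.52). These counts stand beside 35% of all genes higher and 35.9% lower with Hoxa5. Whether fat cell content, chromatin genes or thermogenesis has a part in the level of Hoxa5 was not tested.

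Hoxc8 moved with fat cell and vessel markers. Of 20 adipocyte genes 18 rose and 0 fell (median r 0.43, 0.13 without and 0.67 with Y counts), with Car3 at 0.68 and Plin4 at 0.65, and all 15 endothelial genes rose (median 0.30). Macrophage genes fell in 17 of 20 cases and 1 rose, but their median r was 0.22 without and -0.58 with Y counts. Given the adipocyte and progenitor scores, 6 endothelial genes rose and 1 fell (median 0.08), beside 24.6% and 21% of all genes tested. Without the scores, 26.9% of all genes rose and 30% fell with Hoxc8.

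With Hoxc6, 16 of 20 adipocyte genes rose (median r 0.26), but the median was 0.02 without and 0.42 with Y counts. Of 20 macrophage genes 18 fell (median -0.09 without and -0.24 with Y counts), and 5 fell given the scores. Of 15 endothelial genes 10 rose, with a median of -0.09 without and 0.31 with Y counts, and given the scores 3 rose and 2 fell. As background, 9.72% of all genes rose and 10.1% fell with Hoxc6 given the scores, and 19.1% and 21.6% without them.

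Hoxc9 had the same directions with smaller r. Of 20 adipocyte genes 12 rose (median 0.16) and 17 of 20 macrophage genes fell (median -0.17). Given the adipocyte and progenitor scores, 0 macrophage genes passed by limma (also 0 at an unadjusted p under 0.05), beside 2.58% of all genes higher and 1.63% lower. With Hoxc10, 0 of 20 adipocyte, 0 of 20 progenitor and 0 of 20 macrophage genes passed by limma, and 2, 7 and 0 of them had an unadjusted p under 0.05. The adipocyte median was -0.05 over all libraries but 0.25 without and -0.10 with Y counts, so the clusters stood on opposite sides. With the same gene, 9 of 10 genes of smooth muscle and pericytes rose (median 0.27), although their median r was -0.27 without and 0.39 with Y counts, and 8 of 10 B cell genes rose (median 0.16, -0.22 without and 0.27 with Y counts). Both lists thus had medians of opposite sign in the clusters. Over all genes and without scores, 10.6% rose and 11.8% fell with Hoxc9, and 8.21% and 2.74% with Hoxc10.

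Tcf21 moved with markers of the stroma. Of 20 progenitor genes 18 rose and 0 fell (median r 0.25, 0.40 without and 0.04 with Y counts), with Cd34 at 0.55, and 15 of 20 adipocyte genes fell and 0 rose (median -0.28), with Pparg at -0.44. Of 10 smooth muscle and pericyte genes 6 rose and 2 fell (median 0.46, also given the adipocyte and progenitor scores), led by Tagln (0.59) and Cnn1 (0.56). Mesothelial genes, from the lining of the body cavity, rose in 11 of 12 cases (median 0.15, or 0.34 without and -0.03 with Y counts), and 11 of 12 thermogenesis genes fell (median -0.24, or -0.33 without and -0.09 with Y counts). Given the scores, 4 thermogenesis genes fell and 2 rose (median -0.05), beside 25.4% of all genes lower and 28.1% higher. Without the scores, 28.2% of all genes were lower and 30.5% higher with Tcf21.

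Of 6 ovary and oviduct genes 5 rose with Tcf21, with Inhba at 0.43 and Inha at 0.38. Of 20 macrophage genes 10 rose (median 0.10), whereas given the scores 15 fell and 1 rose (median -0.38), so the direction of this list turned with the covariates. Other patterning factors split, with 13 of 25 rising and 6 falling, led by Nr2f2 (0.57) and Osr2 (0.51), and 8 of 9 HOX cofactor genes rose, with Pknox2 at 0.61 and Meis1 at 0.49. Over all genes, 30.5% rose and 28.2% fell with Tcf21.

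Tbx15 rose with all 10 skeletal muscle genes tested (median r 0.45, 0.62 without and 0.10 with Y counts), with Actn3 and Mylpf at 0.50. All 10 also passed without the 13 libraries with markers of other tissues. Of 20 macrophage genes 14 fell with Tbx15 (median -0.15), and 5 of 12 thermogenesis genes rose (median 0.10). Of 20 adipocyte genes 2 rose and 2 fell. As background, 12.4% of all genes rose and 13.5% fell with Tbx15.

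Among the other patterning factors of fat depots, 10 of 25 rose and 6 fell with Hoxa5, led by Prrx1 (-0.54) and Gata6 (0.44). With Hoxc6 13 rose and 4 fell, led by Gata6 (0.46) and Meox2 (0.25). With Hoxc8 the numbers were 6 and 4, with Hoxc9 7 and 1, with Hoxc10 8 and 2 and with Tbx15 4 and 2. Over all genes, 35% rose and 35.9% fell with Hoxa5, 19.1% and 21.6% with Hoxc6, and 26.9% and 30% with Hoxc8. The shares were 10.6% and 11.8% with Hoxc9, 8.21% and 2.74% with Hoxc10, and 12.4% and 13.5% with Tbx15. The counts with Hoxa5, Hoxc8 and Tbx15 were near or under these shares, so they are no result about the patterning factors. Of the HOX cofactors, 3 of 9 rose and 5 fell with Hoxa5, with Pbx2 at 0.40, and 5 of 9 fell with Hoxc8.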

How the data were processed

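RNA was sequenced from adipose tissue, with 1 library per mouse. Per the study's methods, polyadenylated RNA was used, reads were assigned by EMASE within GBRS to a transcriptome of the founder strains, and values were transformed with the variance stabilizing transformation (VST) of DESeq2. Genome build GRCm38 and DESeq2 are named in the submitters' processing notes without versions. The authors deposited expected counts per gene, in which reads shared by several transcripts are divided. They also deposited VST values, a log2-scale score per gene, and gene positions (score, in megabases). No column of per-sample values was left unused.

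Genes with at least 10 expected counts in a share of 0.5 of the libraries were kept (18380 of 23180). TMM factors came from edgeR 4.0.16, and log2 CPM used a prior count of 2. Correlations were tested by limma 3.58.1 over all genes with Benjamini-Hochberg adjustment and a threshold of 0.05, and by two-sided permutation inside the clusters (100000 permutations). Trends with mouse and library number were tested by edgeR's quasi-likelihood test on counts rounded to whole numbers, with DESeq2 1.42.0 as an alternative (R 4.3.3, Python 3.11.15). Sampling error was taken from counts and covers counting error only. The fits were tested on simulated data.

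The members and gene lists were chosen with earlier results of these data known. Named genes were the members, the HOX genes, for each member the 3 genes most like it and the 1 most opposed (mean of at least 1 CPM, outside its HOX neighbourhood), and from each list the 2 genes with the largest size of r. Of the genes that this rule picks, 1 is not reported here. The lists were HOX clusters, HOX cofactors, Polycomb and Trithorax, other patterning factors and the markers of cell types and tissues. Counts called for lists not described in the report were as follows. T cell genes called higher and lower of 10 were 0 and 8 with Hoxa5, 0 and 1 with Hoxc6, 0 and 2 with Hoxc8, 0 and 1 with Hoxc9, 1 and 0 with Hoxc10, 0 and 1 with Tbx15 and 4 and 1 with Tcf21. Of 5 mammary genes, 0 and 1 were called higher and lower with Hoxa5, 1 and 2 with Hoxc6, 1 and 3 with Hoxc8, 0 and 1 with Hoxc9, 3 and 0 with Hoxc10, 1 and 0 with Tbx15 and 4 and 0 with Tcf21. Of 2 epididymis and 2 seminal vesicle genes tested, at most 1 of each was called with any member. These counts stand beside the shares of all genes called with each member, given with the co-variation of the pairs.

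Alternatives were other scaling (DESeq2 size factors), the VST values, prior counts of 0.5 and 5, no filter, rank correlation, cell type scores as covariates, each cluster alone, pooling, blocks of mouse and library numbers, and leaving out the 2 farthest libraries or the tenth with the lowest totals. Leaving out the 13 libraries with high markers of the reproductive tract or skeletal muscle was chosen after seeing the data.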

Additional observations from a re-analysis of the deposited data

Results flagged for a closer look

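For 6 pairs of these genes the relation inside the libraries without Y chromosome counts differed from that inside the libraries with them, by limma's interaction term fitted over all genes and adjusted over all genes. The adjusted p was 2.25e-15 for Hoxa5 and Hoxc8 (r of -0.35 without and 0.41 with Y counts) and 1.57e-13 for Hoxc10 and Tcf21 (-0.42 and 0.38). It was 1.12e-08 for Hoxc6 and Hoxc8 (0.20 and 0.73), 0.00135 for Hoxa5 and Hoxc10 (0.27 and -0.18), 0.0107 for Hoxc9 and Tcf21 (-0.14 and 0.24) and 0.0181 for Hoxc9 and Hoxc10 (0.49 and 0.51). Without the 13 libraries with markers of other tissues, the adjusted p was 2.12e-14 for Hoxa5 and Hoxc8 and 4.65e-11 for Hoxc10 and Tcf21. Slopes that differ between these libraries were common among all genes tested, at 36.2% with Hoxa5, 23.5% with Hoxc6, 61.1% with Hoxc8, 46% with Hoxc10, 40.4% with Tcf21 and 4.76% with Hoxc9, so the number of pairs is not a result about these genes.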

How the results depend on the processing

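Of the alternative values of the r of a pair, 89.97% counted as unchanged, 15 turned, 14 newly passed and 11 no longer passed. A pair that passed in neither setting counted as unchanged whatever its sign. The values of blocks have no p, and they counted as turned only where a pair that had passed changed sign. Pooling all libraries without centring gave an r of -0.25 for Hoxa5 and Hoxc8, 0.41 for Hoxa5 and Hoxc10, -0.022 for Hoxc6 and Hoxc8, 0.11 for Hoxc6 and Tbx15, -0.40 for Hoxc8 and Hoxc9 and 0.23 for Hoxc10 and Tbx15, and an SD of 2.60 for Hoxc10. With adipocyte and progenitor scores as covariates, r was -0.14 for Hoxa5 and Hoxc8, 0.11 for Hoxa5 and Tcf21 and 0.21 for Hoxc8 and Tcf21, and with the macrophage score it was -0.11 for Hoxa5 and Hoxc8. Libraries without Y counts alone gave -0.35 for Hoxa5 and Hoxc8, 0.27 for Hoxa5 and Hoxc10 and -0.42 for Hoxc10 and Tcf21. Libraries with Y counts alone gave 0.0060 for Hoxa5 and Tcf21, and the lowest block of mouse numbers gave -0.060 for Hoxc10 and Tcf21. The number of negative pairs that passed, 1, was 2 with the mesothelium score, 4 pooled, 3 without Y counts alone and 0 without the 13 libraries with markers of other tissues.

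With adipocyte and progenitor scores, the share of tested genes called higher and lower was 9.72% and 10.1% for Hoxc6 (19.1% and 21.6% without the scores), 2.58% and 1.63% for Hoxc9 (10.6% and 11.8%) and 6.78% and 8.42% for Tbx15 (12.4% and 13.5%). With the deposited VST values, 5.19% of genes were lower with Hoxc10, against 2.74%. For mouse number, 13.7% of genes were called, 23.7% without the cluster covariate and 6.37% in libraries with Y counts alone. Without that covariate the slope of Hoxc10 turned to -0.17 per 100 mouse numbers (edgeR, adjusted p = 0.0494). For library number, 0.294% were called by edgeR, 0% by limma (1558 genes at an unadjusted p under 0.05), 0.613% with no filter, 0.158% after leaving out the tenth with the lowest totals, 0.114% and 0.174% in libraries without and with Y counts alone, 0.0925% with the scores and 0.147% without the 13 libraries. The share of 500 similar genes with a smaller SD moved for Hoxc10 from 84.8% to 60.6% (VST) and 99.6% (pooled), and for Tbx15 from 81% to 65.2% with no filter. Leaving out the libraries with the lowest totals, 0 HOX genes fell with Hoxc6, against 8. The causes of these changes were not tested. No paired analysis was possible because all mice form 1 group and no replicate number is shared. Depth limited Tbx15, with a median of 6 counts.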
